A study of Mus musculus with 2 samples.

Results

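The set described here holds the enzymes that add methyl groups to lysines of histones, those that remove them, and those that remove acetyl groups. A gene was counted as a member when its symbol opened with Kdm, Kmt, Setd, Hdac or Sirt followed by a digit and at least 1 of its transcripts was annotated as protein-coding. The rule found 52 genes among 55536 annotated genes, of which 22028 are protein-coding. They comprised 18 Kdm, 8 Kmt, 8 Setd, 11 Hdac and 7 Sirt genes, so several other writers and erasers, named after other proteins, lie outside it.

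The study sequenced rRNA-depleted total RNA from the chromatin fraction of macrophages grown from C57BL/6J mouse bone marrow. The cells were exposed to 100 ng/ml lipid A, the part of bacterial lipopolysaccharide that TLR4 recognises, for 12 h, were kept without it for 12 h, and then received 100 ng/ml lipid A again for 75 min. All samples belong to this 1 group, so there was no unstimulated or once-stimulated control, and no comparison below measures an effect of lipid A. There were 2 libraries, labelled biological replicates 1 and 2, made from 250 ng of RNA for replicate 1 and 500 ng for replicate 2. Both carry the same mouse donor entry, their age and sex were not collected, and nothing in the labels says whether the cultures were separate, so the spread between them may be partly technical. Any difference between the libraries also goes with the amount of RNA, and these cannot be told apart.

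Histone tails carry methyl and acetyl groups that mark active and silent chromatin. Trimethylation of H3K4 marks promoters, methylation of H3K4 also marks enhancers, H3K36 methylation follows elongating RNA polymerase II, and H3K27 and H3K9 methylation accompany silencing. Methyl groups are added mostly by SET-domain enzymes and removed by amine oxidases or by JmjC dioxygenases. Acetyl groups are removed by zinc-dependent deacetylases and by NAD-dependent sirtuins. In macrophages these enzymes are studied for their part in the altered response of inflammatory genes to a repeated bacterial stimulus. RNA bound to chromatin is rich in transcripts still being made or spliced, so levels here describe RNA at chromatin and not mature mRNA or protein.

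Annotated genes held 18388793 expected counts in replicate 1 and 17640464 in replicate 2. The 52 genes took 89663 of them (0.488%, Wilson 95% interval 0.484 to 0.491) in replicate 1 and 76328 (0.433%, 0.430 to 0.436) in replicate 2. For a gene listed at 0, the floor of 3 counts allows a share of 1.63e-05% in the first library and 1.70e-05% in the second. These intervals and floors cover counting error only, since no molecular identifiers are described. The posterior SD, the program's own error for an expected count, was at most 2.89% of a member's count, in Sirt3. All 10 macrophage marker genes were at 1 TPM (a level scaled for transcript length and library size) or more in both libraries, and their TPM summed to 1232 in replicate 1 and 834 in replicate 2. In the alignment-based tables no T cell and NK cell, B cell, neutrophil or fibroblast marker reached 1 TPM in both. The summed TPM of these 4 lists in replicates 1 and 2 was 0.120 and 0 for T cell and NK cell markers, 0.10 and 0.0300 for B cell markers, 0.450 and 0.720 for neutrophil markers, and 1.01 and 1.85 for fibroblast markers. The alignment-free tables differed on this: 3 of 6 T cell and NK cell markers, 1 of 5 B cell, 2 of 6 neutrophil and 2 of 5 fibroblast markers had a mean of 1 TPM or more. Their highest were Cd3d at 17.8, Ms4a1 at 1.42, Cxcr2 at 3.56 and Col1a1 at 1.47 TPM, and Thy1 was at 13.2 TPM. Cd3e, Pax5 and Ly6g were at 0 counts in both libraries in the alignment-based tables and under 0.1 TPM in the alignment-free ones. Their part in the values of the 52 genes was not tested.

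Most of the 52 genes were present at chromatin. In both libraries 47 (90.4%) reached 1 TPM, against 40.1% of all protein-coding genes. Of the 52, 27 reached 10 TPM in both, against 3940 of 22028 protein-coding genes. Those 3940 were among 8829 protein-coding genes at 1 TPM in both, and the 27 were among the 47. The median level of the 52 genes was 14.0 ± 0.315 TPM (SD of the 2 library medians, n = 2). It was 0.290 TPM over all protein-coding genes and 9.36 TPM over the protein-coding genes that reached 1 TPM in both. Over the members that passed that same limit the median was 19.9 TPM. Kmt genes stood highest by family in both libraries, with a median of 40.1 ± 2.21 TPM, and Hdac genes lowest, at 5.45 ± 0.0990 TPM. Between them the order was not set: the medians in replicates 1 and 2 were 22.8 and 16.4 TPM for Kdm genes, 15.0 and 15.1 TPM for Setd genes and 13.2 and 25.9 TPM for Sirt genes. Only 1 of the 11 Hdac genes, Hdac1, reached 10 TPM in both libraries. Across the 52 genes the libraries ranked the levels much alike, with Pearson's r of 0.980 on the log2(TPM + 0.1) scale and Spearman's rho of 0.975; these are correlations across genes, which are not independent replicates.

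**Figure D1:**
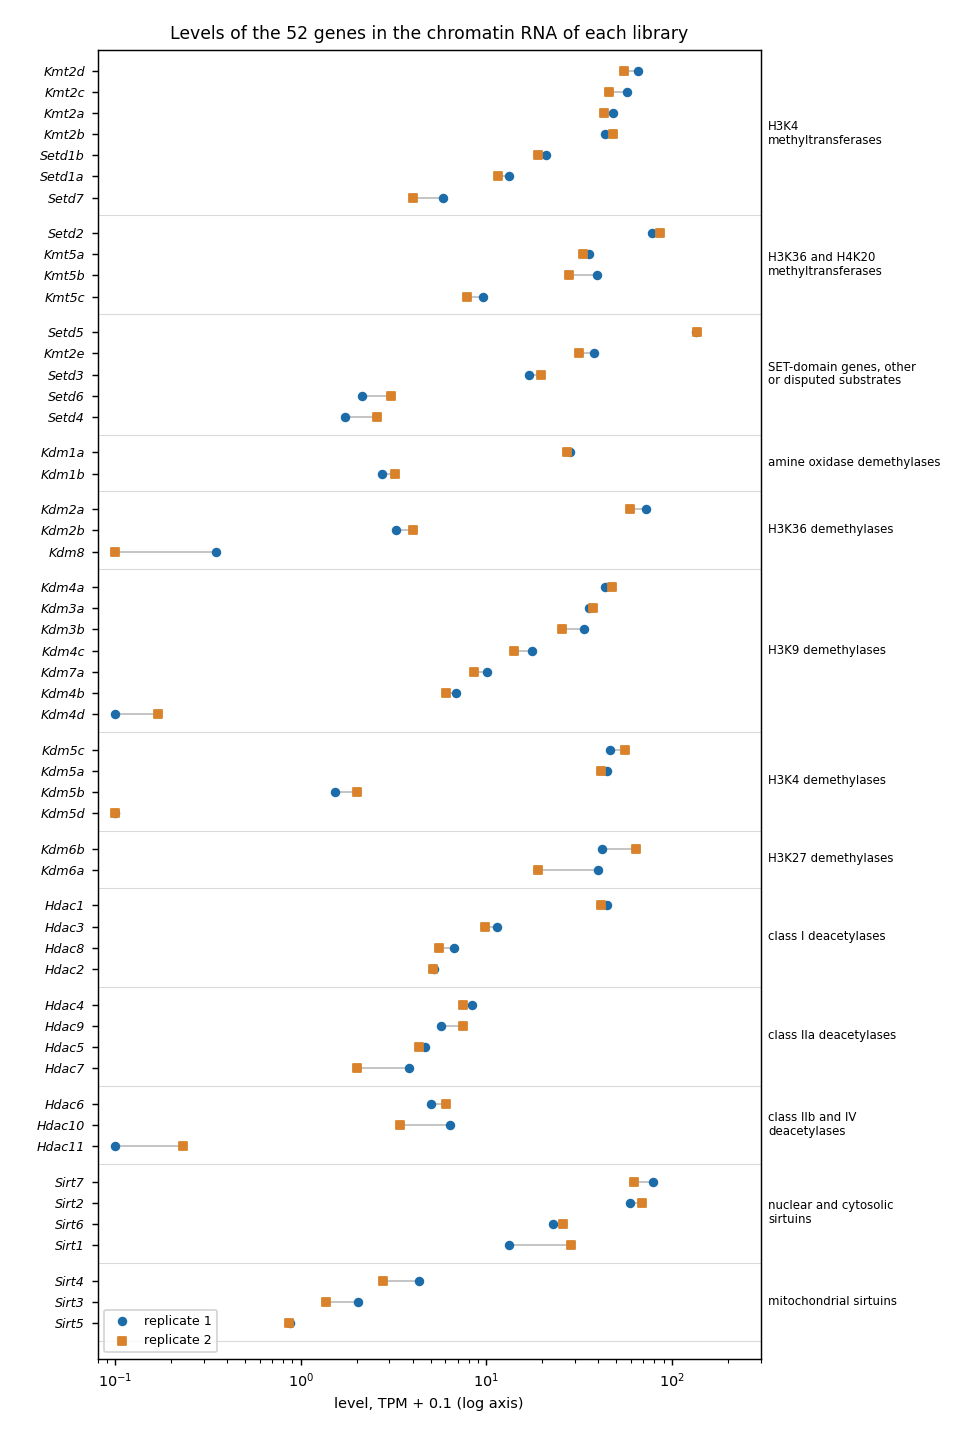
TPM + 0.1 on a log axis for each of the 52 genes, grouped by role, with replicate 1 as blue circles, replicate 2 as orange squares and a grey line between them. The pairs mostly lie close together. Setd5 lies farthest right at 135 and 136 TPM, the widest gaps among genes above 10 TPM are those of Kdm6a and Sirt1, and Kdm5d lies at 0 TPM in both libraries.

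The H3K4 methyltransferases were all expressed, and 6 of 7 reached 10 TPM in both libraries. Kmt2d, which with its paralogue Kmt2c places H3K4 monomethylation at enhancers, was the highest, with 65.2 TPM (replicate 1) and 55.1 TPM (replicate 2). It held 14558 and 10819 expected counts, the most of any member, spread over a transcript of 19823 bases. Kmt2c stood at 57.0 and 45.9 TPM, and its range overlapped that of Kmt2d. Kmt2a (48.2 and 43.0 TPM), which keeps H3K4 methylation at developmental genes, and its close paralogue Kmt2b (43.2 and 48.0 TPM) had overlapping levels. The enzymes that trimethylate H3K4 at promoters were lower, with Setd1b at 20.9 and 18.8 TPM and Setd1a at 13.1 and 11.4 TPM. Setd7, which monomethylates H3K4 and several non-histone proteins, was the lowest of this group at 5.74 and 3.90 TPM from 472 and 342 counts. Its main isoform was Setd7-201, the protein-coding one of 7411 bases, and the alignment-free program gave the gene 8.84 and 5.04 TPM.

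Setd2, the enzyme that lays down H3K36 trimethylation behind elongating polymerase, led the H3K36 and H4K20 group. It stood at 77.5 TPM in the first library and 85.8 TPM in the second, from 5421 and 5431 counts, and at 75.6 and 81.4 TPM in the alignment-free program. Its isoforms split into 52.8% protein-coding, 36.5% retained-intron and 10.7% nonsense-mediated-decay TPM. The H4K20 enzymes were lower. Kmt5a, which adds the initial methyl group and acts in mitosis, had 35.5 and 33.0 TPM. Kmt5b and Kmt5c add further methyl groups to H4K20, and Kmt5b, at 39.1 and 27.9 TPM, stood above Kmt5c, at 9.45 and 7.73 TPM (198 and 157 counts), in both libraries.

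Setd5 was the highest of all 52 genes by gene TPM, with 23.0% of it on protein-coding isoforms and 64.5% on retained-intron ones. It lies at chr6:113077365-113153435 on the plus strand of mm10 and held 135 TPM in replicate 1 and 136 TPM in replicate 2, from 8197 and 7593 counts with a posterior SD of 0. The mean was 135 ± 0.467 TPM (SD, n = 2), at percentile 98.4 of protein-coding genes, and the alignment-free program gave 134 and 132 TPM. Setd5 carries a SET domain whose activity on histones is disputed. In this group Kmt2e, a SET-domain reader of H3K4 trimethylation without established enzyme activity, had 37.8 and 31.5 TPM. Setd3, now known as an actin histidine methyltransferase, had 16.8 and 19.6 TPM. Setd6, which methylates the NF-kappaB subunit RelA, was low at 2.03 and 2.97 TPM from 39 and 42 counts. Setd4 was the lowest at 1.62 and 2.46 TPM from 33 and 22 counts.

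Among the demethylases, both amine oxidases were present. Kdm1a (LSD1), which removes mono- and dimethyl groups from H3K4 within CoREST complexes, had 28.1 and 26.9 TPM from 564 and 539 counts, well above its paralogue Kdm1b, at 2.63 and 3.10 TPM from 181 and 184 counts. Of the H3K36 demethylases, Kdm2a stood at 71.9 and 59.0 TPM (3183 and 2712 counts), whereas Kdm2b, which also brings a Polycomb complex to CpG islands, had 3.15 and 3.90 TPM. Both bind unmethylated CpG through a CXXC zinc finger. Kdm8 (Jmjd5) held 9 counts in replicate 1 and 0 in replicate 2.

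The H3K9 demethylases spread over a wide range. Kdm4a led at 43.3 and 47.1 TPM (2121 and 2032 counts), followed by Kdm3a, a gene induced by hypoxia in many cells, at 35.5 and 37.4 TPM and by Kdm3b at 33.3 and 25.5 TPM. Kdm4c had 17.4 and 14.0 TPM and Kdm7a, which also acts on H3K27, had 9.95 and 8.46 TPM. Kdm4b was lower at 6.75 and 5.93 TPM. Kdm3a stood above Kdm3b in both libraries. In the alignment-free program Kdm3b was the higher in replicate 1, at 55.6 against 43.4 TPM. Kdm4d, known mainly from testis, held 0 and 2 counts, so 6 of 7 genes reached 1 TPM.

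Of the H3K4 demethylases, Kdm5c on the X chromosome had 46.5 and 55.8 TPM from 3756 and 3915 counts, and Kdm5a, found as a partner of the retinoblastoma protein, had 44.4 and 41.3 TPM. Kdm5a thus lay below Kdm5c in both libraries. The alignment-free program gave the reverse in replicate 1, with Kdm5a at 47.4 and Kdm5c at 46.4 TPM. Kdm5b was far lower at 1.43 and 1.90 TPM (117 and 139 counts). Kdm5d, the Y-linked homologue of Kdm5c, held 0 counts in both libraries in the alignment-based tables. The alignment-free program gave Kdm5d 4.63 and 5.48 TPM from 629 and 612 counts, 59.2% of that TPM on retained-intron isoforms.

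The coding sequences of this X and Y pair are alike but not identical. The stretch shown, from the GENCODE M21 transcripts, surrounds their longest identical run, 35 bases, and has capitals at the 22 of 150 positions where the transcripts differ. It is coding bases 1156 to 1305 of Kdm5d-201, at chrY:916677-916911 on the plus strand of mm10 with an intron inside, and coding bases 1159 to 1308 of Kdm5c-202, at chrX:152248464-152248727 on the plus strand, likewise with an intron.
Kdm5d-201: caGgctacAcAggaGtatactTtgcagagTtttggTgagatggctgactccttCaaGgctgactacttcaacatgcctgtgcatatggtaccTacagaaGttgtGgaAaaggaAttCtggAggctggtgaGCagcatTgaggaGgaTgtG
Kdm5c-202: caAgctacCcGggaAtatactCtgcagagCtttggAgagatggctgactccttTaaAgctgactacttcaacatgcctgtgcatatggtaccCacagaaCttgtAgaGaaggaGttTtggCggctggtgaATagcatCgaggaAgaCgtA
Of all stretches of 31 bases in Kdm5d transcripts, 3.39% were also found in transcripts of another gene, and the 3 Kdm5d transcripts whose main match was Kdm5c shared 5 stretches each with it. The search covered annotated transcripts alone, and the part of shared sequence in the Kdm5d values was not tested. Other sex-linked genes were looked at after these values were seen. The alignment-based tables held 206790 and 217105 counts for Xist, the RNA that coats the inactive X, and the alignment-free ones 242277 and 254997. For the Y-linked Ddx3y the alignment-based tables held 0 and 1 counts, and for both Eif2s3y and Uty 0 and 0. Of 183 protein-coding Y genes, none reached 10 counts in either library in the alignment-based tables, which summed to 2 and 4 counts, against 8 genes and 10884 and 8303 counts in the alignment-free tables. The 2 programs thus differed on whether Kdm5d RNA was present at all.

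Both H3K27 demethylases differed between the libraries, in opposite directions. Kdm6b (JMJD3), a demethylase known to be induced by bacterial products in macrophages, lies at chr11:69398508-69413675 on the minus strand. It had 42.0 TPM in replicate 1 and 64.2 TPM in replicate 2 from 3303 and 4791 counts, and 36.5 and 54.7 TPM in the alignment-free program. Kdm6a (UTX), its X-linked paralogue at chrX:18162575-18279936 on the plus strand, had 39.6 and 18.9 TPM from 1564 and 729 counts, and 44.5 and 24.9 TPM in the alignment-free program. In replicate 1 the genes were thus nearly level, with Kdm6a above Kdm6b in the alignment-free program, and in replicate 2 Kdm6b stood far above Kdm6a. Their means were 53.1 ± 15.7 TPM for Kdm6b and 29.2 ± 14.6 TPM for Kdm6a (SD, n = 2). In such bulk RNA, fewer cells with a transcript and less of it per cell cannot be told apart. An antisense gene, Kdm6bos, shares 286 exon bases with Kdm6b on the opposite strand and held 63.0 and 44.3 counts; no source used here says whether the counting used strand.

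The classical deacetylases were low apart from Hdac1. Hdac1, a catalytic subunit of the NuRD, Sin3 and CoREST complexes, had 44.3 and 41.3 TPM from 669 and 554 counts, while its paralogue and partner Hdac2 had 5.10 and 5.05 TPM from 142 and 152 counts. Hdac3, the enzyme of the NCoR and SMRT corepressors, had 11.3 and 9.72 TPM from 334 and 232 counts, with 10.6 and 9.60 TPM in the alignment-free program. Hdac8 had 6.62 and 5.48 TPM. The Hdac1 level carries limits of its own. Retained-intron isoforms held 74.7% of its TPM, against 25.3% in Hdac2, and its protein-coding Hdac1-201 had 11.8 and 9.85 TPM. Of the stretches of 31 bases in Hdac1-201, 60.7% are shared with Gm10093, a processed pseudogene that was assigned 5.24 and 6.66 counts.

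Class IIa deacetylases, which shuttle between nucleus and cytoplasm and repress MEF2 targets, all stayed under 10 TPM. Hdac4 had 8.22 and 7.38 TPM (376 and 407 counts), Hdac9 had 5.62 and 7.38 TPM, and Hdac5 had 4.57 and 4.21 TPM. Hdac4 and Hdac9 were at the same TPM in replicate 2, so their order is not set. Hdac7 was the lowest of them, at 3.73 and 1.90 TPM from 148 and 57 counts. In classes IIb and IV, Hdac6, the cytoplasmic tubulin deacetylase, had 4.93 and 5.97 TPM (266 and 207 counts) and Hdac10, a polyamine deacetylase, had 6.24 and 3.30 TPM. Their order differed between the libraries. Hdac11 held 0 and 1 counts.

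The sirtuins split by the place where their proteins work. The nuclear and cytosolic ones, Sirt7, Sirt2, Sirt6 and Sirt1, all passed 10 TPM in both libraries with a median of 44.1 ± 3.12 TPM, and the mitochondrial ones, Sirt4, Sirt3 and Sirt5, had a median of 1.59 ± 0.460 TPM (SD, n = 2). The alignment-free medians were 47.1 and 4.84 TPM. Sirt7, a nucleolar enzyme that deacetylates H3K18, led at 79.0 and 62.2 TPM from 2013 and 1422 counts. Sirt2, mostly cytosolic, had 59.4 and 68.5 TPM, so the order of Sirt7 and Sirt2 was reversed in replicate 2. Sirt6, a deacetylase of H3K9 and H3K56, had 22.7 and 25.9 TPM. Sirt1, which deacetylates RelA as well as histones, had 13.2 TPM in replicate 1 against 28.6 TPM in replicate 2, from 462 and 938 counts. It lay below Sirt6 in replicate 1 and above it in replicate 2, and in the alignment-free program, with a mean of 40.0 TPM against 25.2 TPM for Sirt6, above it in both. Sirt4 had 4.24 and 2.67 TPM (41 and 23 counts) and Sirt3, the main mitochondrial deacetylase, had 1.92 and 1.27 TPM. Sirt5, which removes succinyl and malonyl groups, had 0.770 and 0.760 TPM from 18 and 14 counts, against 17.3 and 19.7 TPM in the alignment-free program.

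Genes that work with these enzymes gave a frame for their levels. In 6 lists of other chromatin genes, 62 of 65 genes reached 1 TPM in both libraries and the 52 genes, at a median of 14.0 TPM, lay close to their median of 12.2 ± 2.17 TPM. Among other histone lysine methyltransferases (17 genes, all at 1 TPM), the highest means were those of the H3K9 enzyme Ehmt2 (114 and 76.5 TPM) and of Nsd3, an H3K36 enzyme (97.3 and 80.3 TPM), in an order that was reversed in replicate 2. The H3K9 enzyme Suv39h1 had the lowest mean, at 2.38 and 4.08 TPM, but lay above Smyd2 and Suv39h2 in replicate 2. Among other JmjC genes (6 of 8 at 1 TPM), Jmjd1c had 177 and 165 TPM, more than any of the 52, and Jarid2, a Polycomb cofactor, had 19.6 and 24.4 TPM. Uty, the Y-linked relative of Kdm6a, was lowest at 0 counts in both, with 8.94 and 7.88 TPM in the alignment-free program.

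The partner complexes were present too. Of the COMPASS subunits, which support the H3K4 methyltransferases, 9 of 10 reached 1 TPM; Cxxc1 (21.4 and 18.1 TPM) and Ncoa6 (16.1 and 22.5 TPM) had the highest means, in reversed order in replicate 2, and Pagr1a was lowest, at 0 and 1.58 TPM. All 7 Polycomb repressive complex 2 genes reached it, with the highest means in Mtf2 (42.0 and 47.4 TPM) and Eed (44.6 and 38.5 TPM), whose order differed between the libraries, and the lowest in Phf19 (1.41 and 2.66 TPM). All 13 genes of deacetylase complexes did as well. Chd4, the NuRD remodeller, had 135 and 153 TPM and Ncor1, the corepressor that activates Hdac3, had 111 and 91.7 TPM, so both stood far above Hdac3 itself; Rcor1 had the lowest mean, at 3.10 and 2.83 TPM, though Mbd3 lay below it in replicate 2. The 10 histone acetyltransferases, which oppose the deacetylases, had a median of 15.0 ± 0.665 TPM, with the highest means in Ep300 (42.0 and 32.1 TPM) and Kat5 (29.8 and 39.2 TPM), in reversed order in replicate 2, and with Kat2b lowest at 5.75 and 3.64 TPM.

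**Figure D2:**
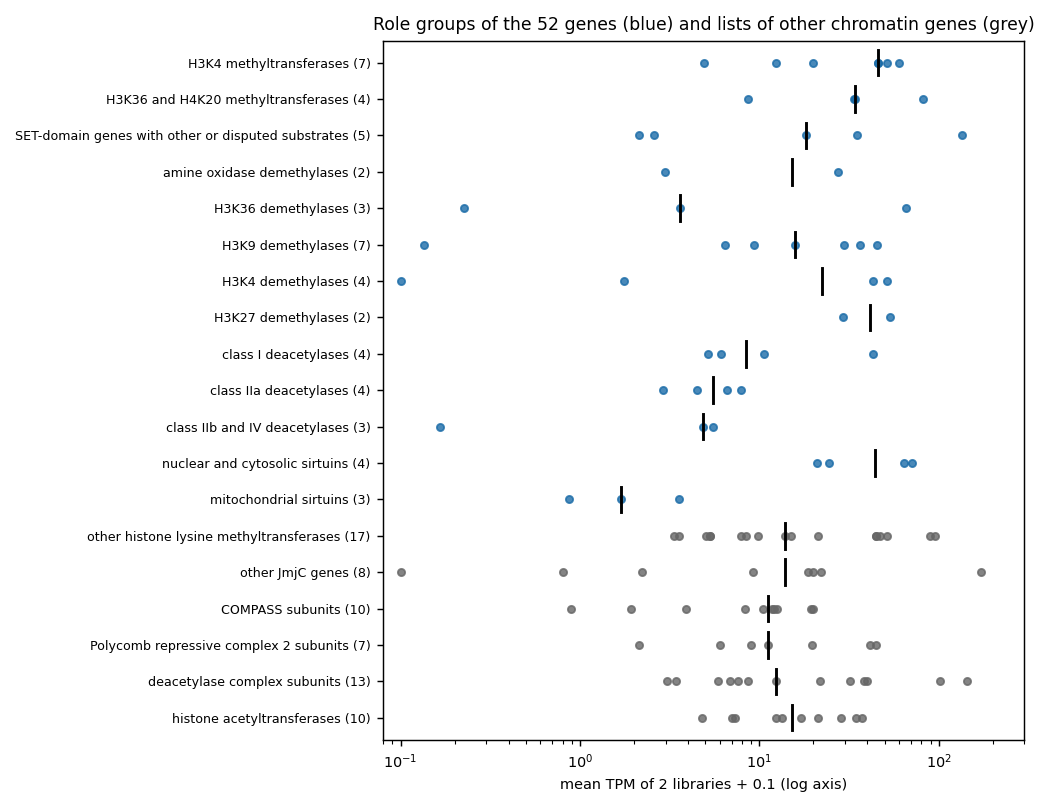
Mean TPM of the 2 libraries + 0.1 on a log axis for each gene of the 13 role groups of the 52 genes (blue) and of 6 lists of other chromatin genes (grey), with a black bar at each median and the number of genes in brackets. The H3K4 methyltransferases and the nuclear and cytosolic sirtuins have medians of 45.6 and 44.1 TPM, class I deacetylases have 8.28 TPM, and the mitochondrial sirtuins have the lowest of these alignment-based medians, 1.59 TPM.

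Much of the signal lay on isoforms annotated as retaining an intron. In chromatin RNA a read inside an intron of a transcript not yet spliced can be assigned to such an isoform, and these cannot be told apart here. The 52 genes have 449 annotated transcripts, 202 protein-coding, 148 retained-intron, 62 processed transcripts and 37 marked for nonsense-mediated decay. Retained-intron isoforms took 37.9 ± 1.04% of their summed TPM (SD, n = 2), against 37.7% over all protein-coding genes. They took 15.8% of the expected counts, as TPM divides by length and counts do not. Protein-coding isoforms took 50.9% of the TPM, nonsense-mediated-decay isoforms 4.41% and processed transcripts 6.80%.

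Of the 47 genes with a mean of 1 TPM or more, 39 (83.0%, against 64.6% of protein-coding genes) had such an isoform annotated. Their median share was 45.3%, against 45.4%. For 11 of the 39 (28.2%, against 42.1% of protein-coding genes) it passed 50%. In the alignment-free program it passed 50% for 21 of 41 (51.2%, against 43.9%), so the program decided on which side of the protein-coding genes the count lay; there Kdm2a (43.6%), Hdac3 (48.5%) and Kdm3a (48.5%) were under the limit. By the alignment-based mean the highest were Sirt4 at 83.0% in replicate 1 and 76.4% in replicate 2, Sirt7 at 75.2 and 81.0%, Hdac1 at 73.3 and 76.1%, Kdm1a at 75.2 and 66.8% and Hdac7 at 61.7 and 74.2%. Setd5 (64.7 and 64.3%), Kdm2a (61.5 and 65.9%), Kdm6a (59.7 and 60.2%), Hdac3 (60.5 and 57.8%), Kdm2b (50.2 and 62.3%) and Kdm3a (mean 50.1 ± 0.180%) made up the rest. These shares differed by under 10 percentage points between the libraries except in Hdac7 and Kdm2b, both of which are under 5 TPM.

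In Sirt7 the leading isoform was Sirt7-205, a retained-intron one of 1925 bases at 26.5 and 21.9 TPM, ahead of the protein-coding Sirt7-201 at 16.5 and 8.59 TPM. In Setd5 the retained-intron Setd5-209 had 28.6 and 29.4 TPM and the protein-coding Setd5-202, of 6362 bases, had 24.1 and 24.9 TPM. By counts the order in Setd5 was the other way round, 942 and 882 for Setd5-209 and 2520 and 2358 for Setd5-202. The choice of unit therefore set which isoform led. In Hdac3 the protein-coding Hdac3-201 led, at 4.47 and 3.49 TPM, although retained-intron isoforms together took more.

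The lowest mean shares among genes with such an isoform were those of Hdac8 (10.7 and 5.66%), Kmt2c (10.6 and 7.67%), Hdac9 (10.5 and 8.55%), Kdm3b (8.31 and 12.5%) and Kdm1b (11.8 and 8.74%). For 8 genes at 1 TPM no retained-intron isoform was annotated, and their share of 0 says nothing about splicing. These were Kdm4a, Kdm4b, Kdm4c, Kdm6b, Kdm7a, Kmt2a, Kmt2d and Setd1a. Kdm6b was read as Kdm6b-201, its coding transcript, at 29.1 and 46.9 TPM, and Kdm6b-202, a processed transcript of 743 bases, at 12.9 and 17.3 TPM.

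Isoforms marked for nonsense-mediated decay passed 20% of TPM in 4 of the 47 genes, against 561 of 9283 protein-coding genes with a mean of 1 TPM or more. The 4 genes, with the share on such isoforms, were Kmt2e (40.9%), Kdm5a (28.5%), Kmt2a (22.4%) and Sirt1 (21.8%). In Kmt2e and Kdm5a such an isoform was the highest, Kmt2e-207 at 9.90 and 9.73 TPM and Kdm5a-206 at 11.2 and 10.1 TPM. Of the 47 genes, 34 had a protein-coding leading isoform, 11 a retained-intron one (23.4%, against 27.9% of protein-coding genes) and 2 one marked for decay. Among the 9283 protein-coding genes these numbers were 5842, 2588 and 216. The leading isoform was the same in both libraries for 35 of the 47 genes (74.5%, against 74.5% of protein-coding genes) and in both programs for 26 (55.3%, against 54.8%).

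**Figure D3:**
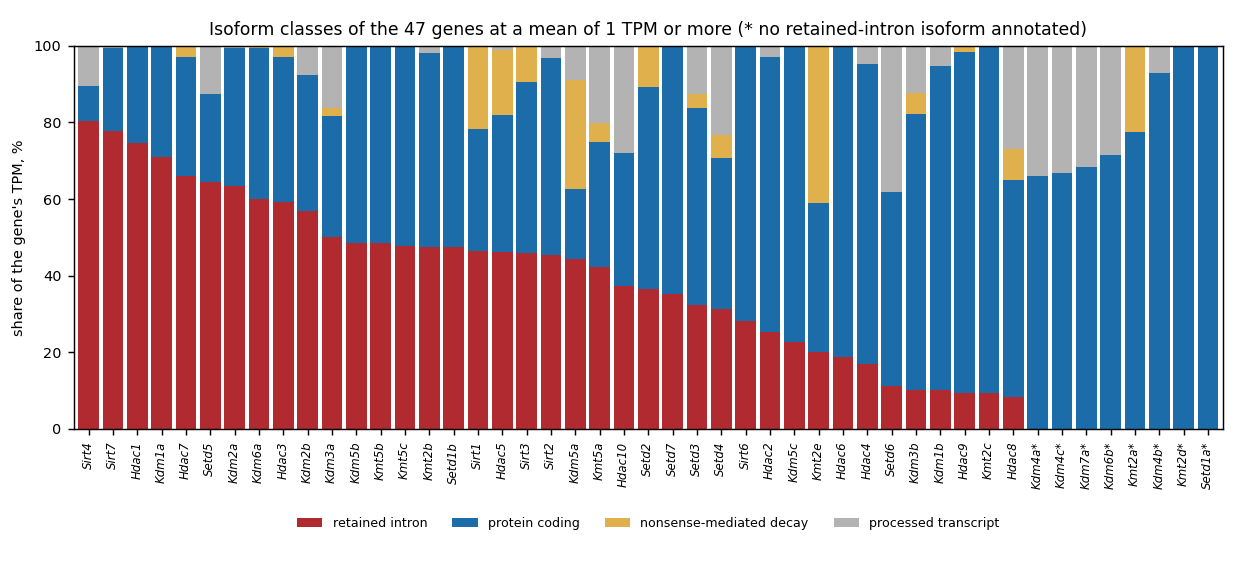
Share of each gene's TPM, mean of the 2 libraries, on retained-intron, protein-coding, nonsense-mediated-decay and processed-transcript isoforms, for the 47 genes at a mean of 1 TPM or more; an asterisk marks the 8 genes with no retained-intron isoform annotated. Retained-intron shares run from 80.4% in Sirt4 to 8.43% in Hdac8, and 11 genes lie above 50%.

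The libraries were compared by the ratio of replicate 1 to replicate 2 in TMM-scaled counts, for the 48 genes with at least 10 counts in each. With 1 library on each side the ratio has no replicate check and no test was made. It passed 1.5-fold higher in replicate 1 for 5 genes (10.4%, against 12.8% of protein-coding genes) and 1.5-fold lower for 2 (4.17%, against 9.46%). The median log2 ratio was 0.12, against 0.03, and the median size of the ratio regardless of sign was 0.23 on the log2 scale, against 0.31. The 52 genes were therefore past the limit no more often than protein-coding genes at large.

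Those higher in replicate 1 were Hdac7 (log2 ratio 1.24), Kdm6a (0.97), Hdac10 (0.81), Sirt4 (0.70) and Sirt3 (0.66). Those lower were Sirt1 (-1.15) and Kdm6b (-0.67). Only Kdm6a, Sirt1 and Kdm6b had at least 100 counts in both libraries, as Hdac7 held 148 and 57 counts, Hdac10 189 and 98, Sirt4 41 and 23, and Sirt3 58.8 and 33.9 with a posterior SD of 1.70 and 0.980. Sirt3 also overlaps Psmd13 and Ric8a on the opposite strand. In the alignment-free counts the log2 ratios were 0.72 for Kdm6a, -0.78 for Sirt1 and -0.60 for Kdm6b, in the same direction, while that of Sirt3 was 0.21, inside the limit. Of the 9 Kdm6a isoforms with counts, 7 had more in replicate 1 and 2 had fewer, such as Kdm6a-202 at 92.8 and 102. Among the 7, Kdm6a-201, the coding transcript of 5918 bases, had 374 and 176 counts and the retained-intron Kdm6a-203 had 494 and 207. Of the 6 Sirt1 isoforms with counts, 5 had fewer in replicate 1, among them Sirt1-201 at 218 and 404 counts, while Sirt1-206 was nearly level at 19.4 and 19.0.

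Just inside the limit lay Kmt2e (0.49), Kdm4b (0.46), Setd4 (0.45) and, on the other side, Kdm5b (-0.38). In 6 of the 48 genes, Hdac2, Hdac4, Hdac6, Kdm1a, Kdm3a and Setd4, the order of the libraries in TPM was opposite to that in scaled counts. TPM depends on the length of the isoforms called and is not TMM-scaled, and the part of either in these 6 genes was not tested. The widest case was Setd4, at 1.62 and 2.46 TPM with a log2 count ratio of 0.45. Of the macrophage markers, 5 of 10 were past the limit and higher in replicate 1, among them Adgre1 (497 and 193 TPM) and Itgam (30.8 and 9.73 TPM). The part of this shift in the values of the 52 genes was not tested.

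**Figure D4:**
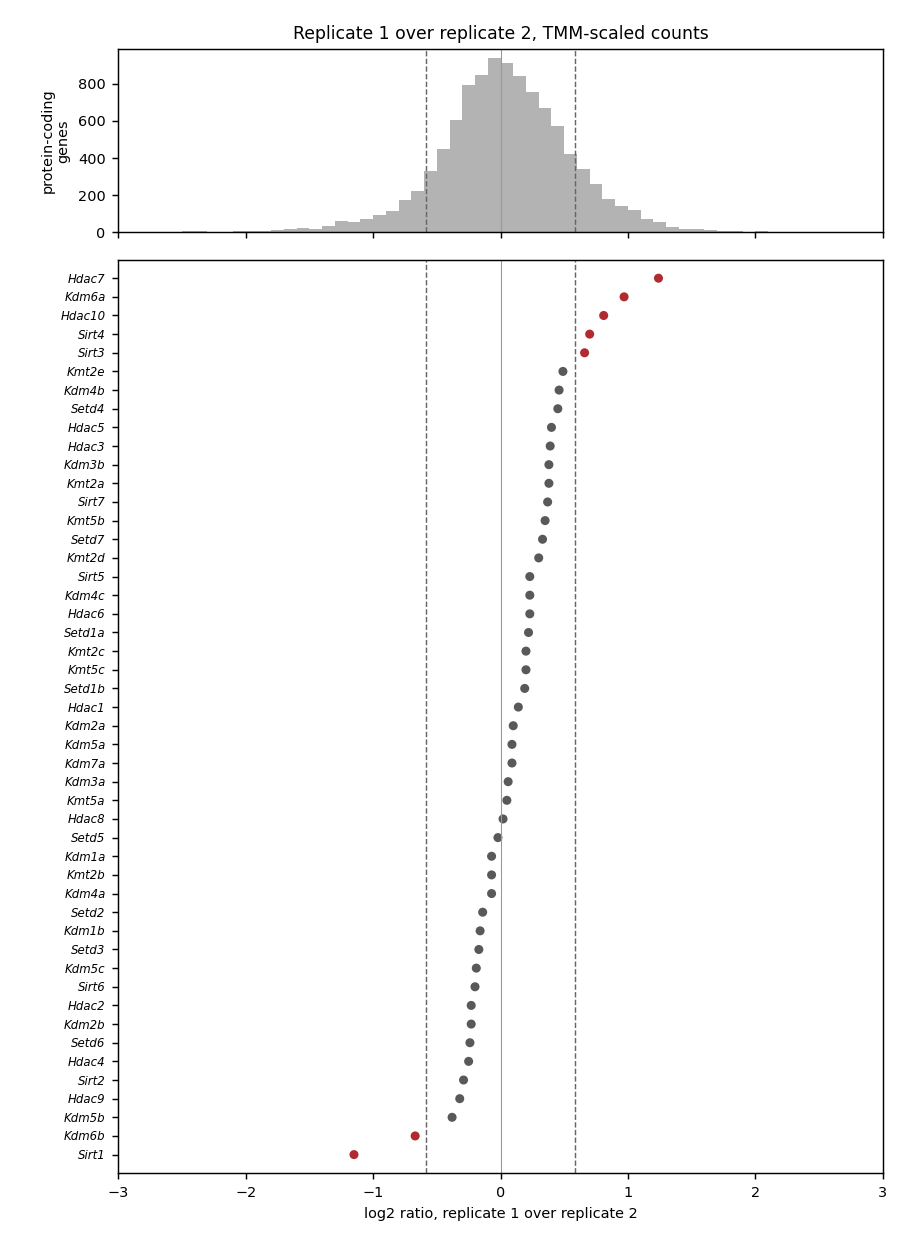
Log2 ratio of replicate 1 over replicate 2 in TMM-scaled counts, as a histogram over 10338 protein-coding genes (top) and for each of the 48 members with at least 10 counts in both libraries (bottom); dashed lines mark 1.5-fold, and red points lie beyond it. Hdac7, Kdm6a, Hdac10, Sirt4 and Sirt3 lie to the right and Kdm6b and Sirt1 to the left, and the other 41 genes lie between the lines.

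The promoters of the genes with the largest ratios at high counts are shown with the hexamer CACGTG, the E-box, in capitals, from RefSeq on GRCm38.p6, 250 bases before to 50 after the start. The motif was chosen after the sequences were seen. The Sirt1 window is chr10:63338986-63339285 on the minus strand and holds 2 copies and 47 CG pairs, and the Kdm6a window is chrX:18162325-18162624 on the plus strand and holds 1 copy and 21 CG pairs.
Sirt1: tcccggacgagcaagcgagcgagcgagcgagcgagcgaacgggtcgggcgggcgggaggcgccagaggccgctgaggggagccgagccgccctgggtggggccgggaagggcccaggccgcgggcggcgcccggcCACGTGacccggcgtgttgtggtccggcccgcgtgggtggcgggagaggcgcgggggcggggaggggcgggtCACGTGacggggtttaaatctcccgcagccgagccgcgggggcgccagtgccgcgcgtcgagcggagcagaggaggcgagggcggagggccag
Kdm6a: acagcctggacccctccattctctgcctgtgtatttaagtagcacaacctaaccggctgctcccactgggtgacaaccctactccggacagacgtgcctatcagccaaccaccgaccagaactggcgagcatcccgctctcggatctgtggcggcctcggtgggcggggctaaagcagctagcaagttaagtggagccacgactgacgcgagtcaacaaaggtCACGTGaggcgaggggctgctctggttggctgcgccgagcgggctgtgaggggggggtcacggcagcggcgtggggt
RefSeq entries matched 41 of the 52 genes with 57 windows. CACGTG, which reads the same on both strands, was in 4 of them (7.02%, against 7.15% of 32851 windows of all genes), in Hdac5, Kdm4c, Kdm6a and Sirt1. TATAAA, on either strand, was in 3 (5.26%, against 13.6%), in Hdac8, Hdac9 and Kdm5d. The NF-kappaB consensus was in 3 (5.26%, against 4.51%), in Kdm2b, Sirt2 and Sirt6. The median number of CG pairs was 22 per window, against 7, so that the windows of the 52 genes were mostly CpG-rich. A match in these letters is a description of the sequence and not a bound site.

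The deposited tables came from an alignment-based and an alignment-free program, and most of the 52 genes lay within 2-fold between them. For 35 of the 52 the mean levels differed by more than the SD between the libraries. Of 49 genes at 1 TPM or more in either program, 8 (16.3%, against 34.4% of protein-coding genes) were 2-fold or more lower in the alignment-based one and none was 2-fold higher, and the median log2 difference was -0.35, against -0.56, on the log2(TPM + 0.1) scale. Besides Kdm5d, the 8 were Sirt5, Setd4, Sirt3, Kdm2b, Kdm4b, Setd1a and Setd3. Sirt5 differed most among genes with counts in both. Its alignment-free level lay mainly on Sirt5-209, which held 886 and 927 alignment-free counts against 5.31 and 4.09 alignment-based ones. Of the stretches of 31 bases in Sirt5-209, 41% occur in transcripts of other genes, with Wdr31 sharing most of them; Wdr31 itself held 2 counts in each library in the alignment-based tables, and 429 and 512 in the alignment-free ones.

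Shared sequence also marked other genes of this group. Setd3 shares 36.8% of its stretches with other genes, mainly the processed pseudogene Gm14026, and Setd1a shares 48.3%, mainly with Gm49388, a gene annotated over 51.8% of its exon bases on the same strand that held 0 counts. The alignment-based means were 18.2 TPM for Setd3 and 12.3 TPM for Setd1a, against alignment-free ones of 37.2 and 25.3 TPM. In Setd1a the sharing isoform Setd1a-202 had 11.7 TPM alignment-based and 10.5 alignment-free. The difference lay mainly on Setd1a-204 (6.36 TPM alignment-free) and Setd1a-205 (6.52), at 0 alignment-based and with no stretches shared. In Setd3 it lay mainly on Setd3-204 (20.9 TPM alignment-free), with 60.4% of its stretches shared. The part of shared sequence in these differences was not tested. Setd4 (2.04 TPM alignment-based, against 6.35 alignment-free), Sirt3 (1.59 against 4.84), Kdm2b (3.52 against 9.80) and Kdm4b (6.34 against 14.4 TPM, with none of its stretches shared) differed in the same direction. In Kdm4b, 6.86 of the alignment-free TPM lay on Kdm4b-206, of 130 bases, from 4 alignment-free counts in each library. That isoform was at 0 in the alignment-based program, and the coding Kdm4b-201 had 2.64 TPM there against 2.53 alignment-free. Kdm3b overlaps Gm26538 on the opposite strand over 24.6% of its exon bases, and Hdac4 overlaps Gm26720 likewise over 22.4%. Other members also share exon bases with annotated genes. How common this is among all protein-coding genes was not computed.

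**Figure D5:**
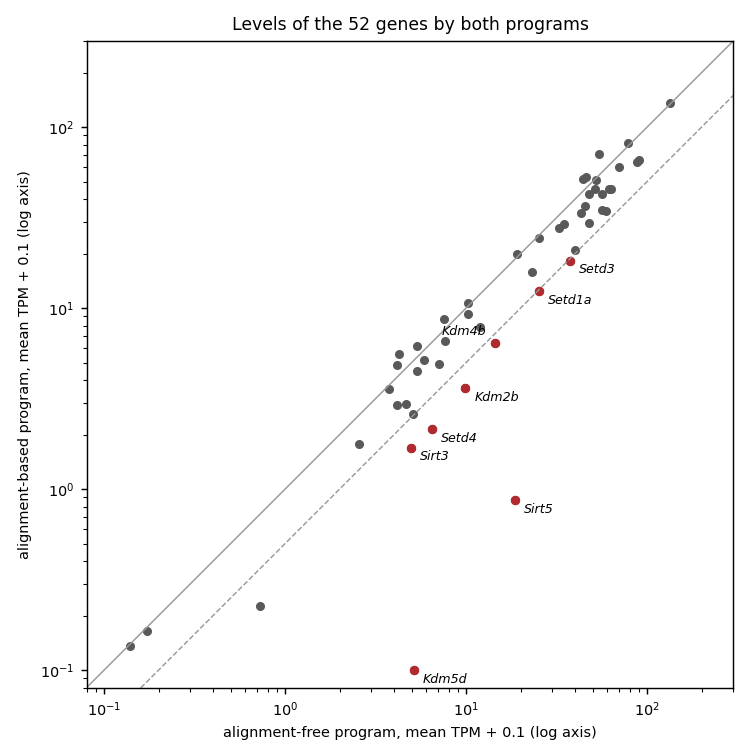
Mean TPM + 0.1 of the 52 genes in the alignment-based program (vertical) against the alignment-free program (horizontal), both on log axes, with a solid line at equality and a dashed line at 2-fold lower. Red named points are the 8 genes 2-fold or more lower in the alignment-based program at 1 TPM or more in either. Sirt5, at 0.765 against 18.5 TPM, and Kdm5d, at 0 against 5.05 TPM, lie farthest from the line.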

How the data were processed

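Per the labels and file headers, the deposited tables hold, for each of 2 libraries, expected counts and TPM per gene and transcript from an alignment-based program, and estimated counts and TPM per transcript from an alignment-free one; the genome was mm10 with GENCODE M21 genes. No source used here names the programs, their versions or the strand setting. Expected counts summed to 18445009 in replicate 1 and 17686824 in replicate 2 over all entries. The posterior SD is the deposited error of an expected count within a library.

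Levels are deposited TPM. The members and lists were chosen with earlier results of these data known. Ratios used expected counts rounded to whole numbers, at least 10 in each library, scaled by TMM over all annotated genes in edgeR 4.0.16 (R 4.3.3); no test was possible with 1 group. The ratio step was tested on simulated data. Other steps used Python 3.11.15, pandas 2.3.3 and scipy 1.17.1. Stretches of 31 bases were searched in all GENCODE M21 transcripts, on either strand. Every member was named, with more values for the highest and lowest of each role group, those past 1.5-fold, those at either end of the retained-intron shares and those that differed most between programs. Alternatives were the other program, other scalings, filters and limits, and each library alone.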

Additional observations from a re-analysis of the deposited data

How the results depend on the processing

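No paired analysis was possible because there was 1 group and no comparison between groups. The number of genes at 1 TPM in both libraries stayed between 47 and 49 under the other program, protein-coding TPM alone, each library alone and a limit of 0.5 TPM, and was 35 at 5 TPM. The median level was 21.0 TPM in the alignment-free program, 52.1 when TPM was rescaled to protein-coding genes, 19.9 over genes at 1 TPM alone, and 12.7 to 13.1 with either library left out. The number past 1.5-fold stayed at 7 under 2 other scalings. A minimum of 1 count kept the same 48 genes, so its 7 was fixed in advance and shows no stability. The number was 3 at a minimum of 100 counts and 2 at 2-fold, both by construction smaller sets. The alignment-free counts also gave 7, among 50 genes, but not the same 7. There Sirt3 (log2 ratio 0.21) fell inside the limit and Kdm8 (0.96), under the count minimum in the alignment-based tables, passed it. The median log2 ratio ran from 0.09 to 0.19, and library totals alone moved the median of all protein-coding genes by 0.07. Leaving out a library was not possible for ratios between the 2. The retained-intron share was 15.8% by counts, 37.3% in the alignment-free program, and 37.2 to 38.6% with either library left out. The number of genes over 50% was 7 by counts, 21 in the alignment-free program, 12 to 15 with either library left out, 8 at a minimum of 5 TPM and 12 with no minimum; the cause was not tested. No ratio past the limit changed direction under any of these settings.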
